A study of Mus musculus with 21 samples.

Results

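Macrophages take up lipoproteins, dying cells and free fatty acids, and a small set of genes governs what becomes of that lipid. Described here are 10 such genes, *Abca1*, *Abcg1*, *Pparg*, *Nr1h3*, *Lpl*, *Fabp4*, *Fabp5*, *Plin2*, *Gpnmb* and *Lgals3*. They were chosen by symbol, with earlier results of these data known, and are 10 of 34236 gene symbols in the count table. RNA was sequenced from macrophages sorted from kidneys of male C57BL/6J mice, 24 weeks of age, after Sham surgery or renal artery stenosis (RAS), in which a cuff narrows the artery and leaves the kidney chronically short of blood. In the Sham controls the artery was exposed but no cuff was placed. Cells positive for F4/80 and CD64 were sorted into 3 populations after lymphocytes, NK cells, granulocytes and erythrocytes had been gated out. Kidney-resident macrophages (KRM), intermediate for CD11b and CD11c, gave 4 Sham and 3 RAS libraries. The CD11chi macrophages, called monocyte-derived in the labels, gave 3 Sham and 4 RAS libraries, and so did the CD11clo macrophages. All groups shared one strain and sex and a sort time of 5 hours. The gates rest on surface proteins, so a population here is a gate and not a lineage proven by these libraries. The study examined the origin of the gated cells by fate mapping and parabiosis in other mice.

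Cholesterol leaves a macrophage mainly through transporters of the ABC family. ABCA1 loads cholesterol and phospholipid onto lipid-poor apolipoprotein A-I, and ABCG1 passes sterol to mature high-density lipoprotein. Sterol derivatives activate the nuclear receptor LXR alpha, encoded by *Nr1h3*, which induces *Abca1* and *Abcg1*, while the fatty acid sensor PPAR gamma, encoded by *Pparg*, induces *Fabp4*, *Plin2*, *Lpl* and *Nr1h3* in several cell types. Macrophages that hold much lipid, such as the foam cells of arteries and those of obese fat tissue, are known for high *Gpnmb*, *Lgals3*, *Fabp4* and *Fabp5*.

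The promoters of *Abca1* and *Gpnmb*, which both rose with RAS in KRM, are printed as the 250 bases before the RefSeq start on GRCm38.p6, 5′ to 3′ on the strand of the gene. The set of promoters searched held 6 of the 10 genes, *Abca1*, *Pparg*, *Nr1h3*, *Plin2*, *Gpnmb* and *Lgals3*. It had no entry for *Abcg1*, *Lpl*, *Fabp4* and *Fabp5*, which were therefore not searched. The *Abca1* stretch lies at chr4:53159896-53160145 on the minus strand, directly upstream of its first exon, and the *Gpnmb* stretch at chr6:49036268-49036517 on the plus strand. Capitals mark matches to the motifs searched.
Abca1: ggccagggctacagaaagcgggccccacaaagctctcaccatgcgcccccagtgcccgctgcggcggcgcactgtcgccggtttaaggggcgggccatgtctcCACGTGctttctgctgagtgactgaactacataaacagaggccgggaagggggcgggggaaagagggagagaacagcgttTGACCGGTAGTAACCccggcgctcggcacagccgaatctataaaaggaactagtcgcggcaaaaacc
Gpnmb: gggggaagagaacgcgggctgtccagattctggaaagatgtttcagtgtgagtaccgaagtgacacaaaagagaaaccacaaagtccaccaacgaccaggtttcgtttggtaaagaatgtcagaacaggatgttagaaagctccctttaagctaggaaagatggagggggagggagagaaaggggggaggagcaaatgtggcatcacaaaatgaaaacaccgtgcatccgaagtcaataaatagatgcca
In the *Abca1* stretch the E-box CACGTG stands 147 to 142 bases before the start, a motif that 6.02% of 32851 promoters of this length hold on either strand. A relaxed form of the repeat that LXR binds, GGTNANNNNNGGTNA, stands 67 to 53 bases before the start on the opposite strand, and 0.621% of the promoters hold it. The strict forms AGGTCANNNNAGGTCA and AGGTCANAGGTCA, held by 0.0152% and 0.0335% of promoters, were in none of the 6 genes' stretches. The single hexamer AGGTCA, held by 14.0%, stood 9 to 4 bases before one *Pparg* start, 28 to 23 bases before another, and 218 to 213 bases before that of *Plin2*. The *Gpnmb* stretch held none of these, nor CATGTG or TGANTCA, which 12.3% and 6.75% of promoters hold.

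Library totals ran from 6891142 to 18592381 counts, with 14607 to 17703 genes counted, and 0 counts leave up to 3 counts possible. That limit covers counting error only, since copies made by PCR carry no molecular identifiers. Replicates of a group differed by more than counting noise in every pair, with CD11chi RAS 3 and 4 the most alike at a chi-square of 4.95 per degree of freedom. KRM RAS 2 and 3 were also alike, at 9.57, while KRM RAS 1 differed from them at 126 and 99.2. The summed level of 10 macrophage markers was 18854 to 26531 CPM (counts scaled to library size) in KRM Sham, 9476 to 16298 in KRM RAS, and 3018 to 17557 in the other groups. Some libraries stood apart by markers of other kidney cells. Distal nephron and collecting duct markers, 8 genes, summed to 4116 and 3049 CPM in KRM RAS 2 and 3 but 104 CPM in KRM RAS 1, and to 6.56 to 176 CPM in KRM Sham. Endothelial markers, 10 genes, were at 236 and 205 CPM in KRM RAS 2 and 3, 30.3 CPM in KRM RAS 1, and 11.6 to 25 CPM in KRM Sham. KRM RAS 1 in turn held 294 CPM of T and NK cell markers, against 36.1 and 33.0 CPM in the others and 2.20 to 3.13 CPM in KRM Sham. CD11chi Sham 3 held 19916 CPM of 10 proximal tubule markers, against 353 and 371 CPM in the rest of its group. KRM RAS 1 is in doubt for another reason: its values in the count table had a correlation of 0.09 across genes with its values in the second deposited table, against at least 0.92 in the other libraries, so that a column of either table may belong to another library. Calls given with a value that rest on it are therefore also given without it. In sorted bulk samples fewer cells of a type and less RNA per cell cannot be told apart.

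Levels are given as CPM after TMM scaling, a correction for differences in composition between libraries. Per kilobase of exon, which allows genes to be compared, *Lgals3* was the most abundant of the 10 in Sham KRM, at 162 CPM per kilobase, followed by *Plin2* at 52.2, *Lpl* at 49.8 and *Pparg* at 23.9. *Abcg1* and *Abca1* followed at 7.89 and 5.13 CPM per kilobase, and *Nr1h3*, *Fabp5* and *Fabp4* were low at 1.2, 0.825 and 0.780. *Gpnmb* was nearly silent at 0.0593 CPM per kilobase.

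**Figure D1:**
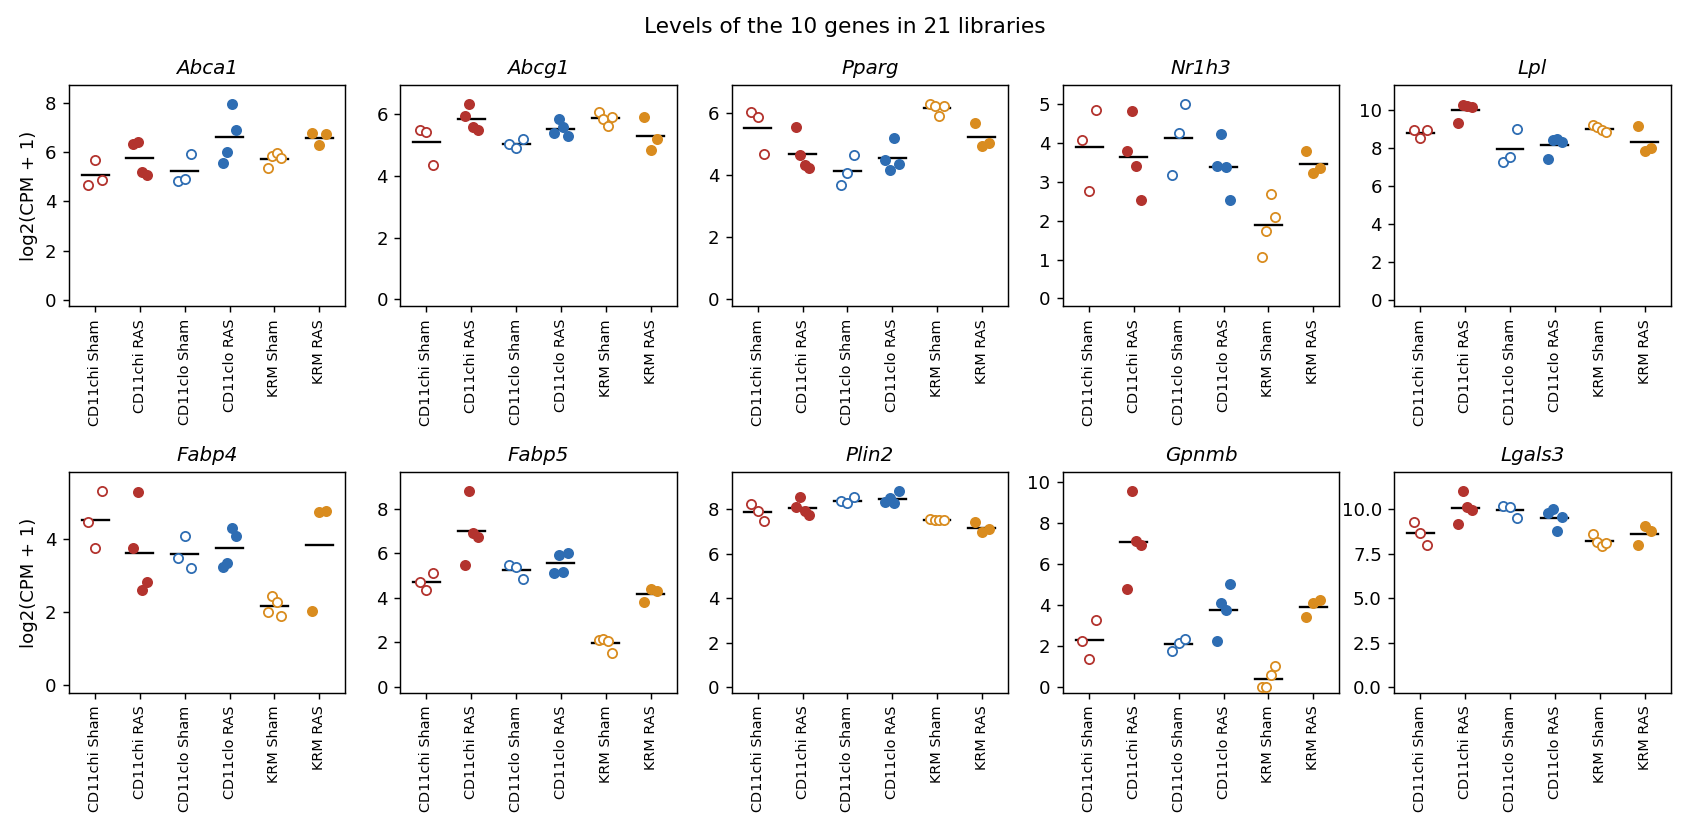
Levels of the 10 genes in every library, as log2(CPM + 1) on the vertical axis, by population and surgery. Open points are Sham and filled points RAS libraries, in red for CD11chi, blue for CD11clo and orange for KRM, and bars are the mean of the points; Fabp5 and Gpnmb sit lowest in Sham KRM, where no library exceeds 3.49 and 1.05 CPM.

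Groups were compared by the quasi-likelihood test of edgeR, and a gene was called at an adjusted p under 0.05, over all genes tested. Nothing in the labels says whether libraries came from separate mice, so p-values measure the spread between these samples. Between KRM and CD11clo macrophages of Sham kidneys 8 of the 10 genes were called, 2 higher and 6 lower in KRM, where 41.9% of 12365 genes were called, 19.5% higher and 22.4% lower. *Pparg* and *Abcg1* were higher, and *Nr1h3*, *Fabp4*, *Fabp5*, *Plin2*, *Gpnmb* and *Lgals3* were lower. The median log2 difference of the 10 genes was -1.30, beside -0.04 over all genes. The genes were chosen with earlier results known, so such medians and shares describe the set and do not test it. Without CD11clo Sham 3, which held 6081 CPM of proximal tubule markers against 209 and 165 CPM in the rest of its group, *Abca1* and *Lpl* were called as well, both higher in KRM. In that fit 47.1% of 12614 genes were called. Against CD11chi macrophages 2 of the 10 were called, *Fabp4* and *Fabp5*, both lower in KRM, where 5.13% of 12380 genes were called and 4.13% were lower. Between CD11chi and CD11clo macrophages none of the 10 was called by edgeR, where 1.52% of 12105 genes were, 0.917% higher and 0.603% lower in CD11chi; 2 of the 10 had an unadjusted p under 0.05, and DESeq2 called 2, *Pparg* and *Lgals3*. In the Sham groups libraries with the same number deviated together, most clearly number 3. For numbers 1 and 2 of CD11chi and CD11clo the same-number correlations, 0.349 and 0.385, were below the highest with another number, 0.482 and 0.457. The fit with the replicate number as a block is given where it changes a call. With the block *Fabp5* alone was called against CD11chi (log2 fold change -2.99, adjusted p = 0.0442), among 89 genes in all, and *Fabp4* had an adjusted p of 0.0980. Against CD11clo the block added *Lpl*, at 1.15 (adjusted p = 0.0447), to the 8, where 34.5% of 12365 genes were called. Between CD11chi and CD11clo the block gave 595 genes and none of the 10.

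In RAS kidneys KRM differed from CD11chi macrophages in 1 of the 10, *Fabp5*, where 9.23% of 13226 genes were called, 4.17% higher and 5.07% lower, and from CD11clo macrophages in 2, *Fabp5* and *Plin2*, where 9.17% of 13179 were, 3.28% higher and 5.89% lower. All 3 differences were lower in KRM. CD11chi exceeded CD11clo macrophages in 2, *Lpl* and *Gpnmb*, where 8.27% of 12305 genes were called, 5.15% higher and 3.12% lower. Dendritic cell markers, 8 genes, were at 1254 to 6030 CPM in RAS CD11chi libraries against 175 to 538 CPM in RAS CD11clo libraries, and their part in these differences was not tested. Without CD11chi RAS 1, KRM differed from CD11chi macrophages in 4 of the 10, with 2291 genes called in all. Without CD11chi RAS 2, 3 or 4, or KRM RAS 2 or 3, none of the 10 was called there and 14 to 201 genes were in all. Without KRM RAS 1, *Lpl* alone was called against CD11chi (log2 -2.06, adjusted p = 0.0119), and *Fabp5* and *Plin2* against CD11clo, at -1.27 and -1.43 (adjusted p = 0.0439 and 0.0148). In these fits 19.6% of 14257 genes and 23.0% of 14072 genes were called. Without CD11clo RAS 2 or 4, or KRM RAS 2 or 3, none of the 10 separated KRM from CD11clo macrophages, with 0 to 89 genes called in all.

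**Figure D2:**
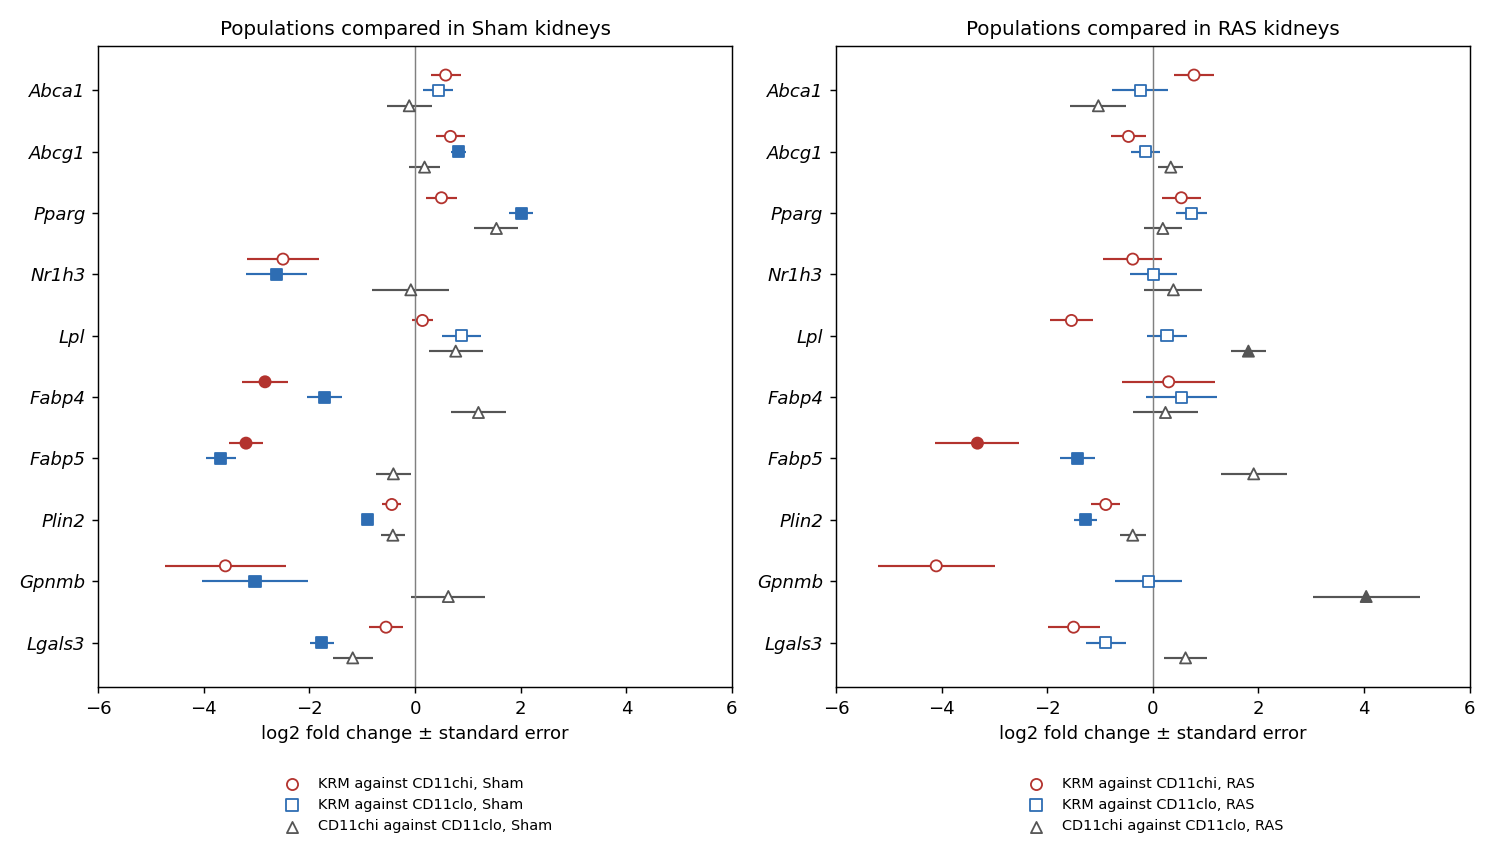
Log2 fold changes between populations, with their standard errors, in Sham kidneys (left) and RAS kidneys (right). Positive values are higher in the population named first, and filled symbols have an adjusted p under 0.05 in edgeR; in Sham, 8 genes are filled for KRM against CD11clo and 2 for KRM against CD11chi.

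With RAS edgeR called genes in KRM and in neither of the other populations. In KRM 4 of the 10 genes were called, *Abca1*, *Fabp5* and *Gpnmb* higher and *Pparg* lower, where 9.7% of 12852 genes were called, 7.77% higher and 1.94% lower. The median log2 change of the 10 was 0.75, beside 0.02 over all genes. These calls depended on single libraries. Without KRM RAS 1 all 10 genes were called, but so were 50.2% of 14088 genes, and the directions were those of *Abca1*, *Nr1h3*, *Fabp4*, *Fabp5*, *Gpnmb* and *Lgals3* higher and of *Abcg1*, *Lpl*, *Pparg* and *Plin2* lower. The log2 changes were then 0.84 for *Abca1*, 2.79 for *Fabp5* and 5.43 for *Gpnmb* (adjusted p = 0.0102, 0.000218 and 0.00135). None of the 10 was called without KRM Sham 1, KRM RAS 2 or KRM RAS 3, with 26, 28 and 32 genes called in all. *Fabp5* alone was called without KRM Sham 2 or KRM Sham 4, with 33 and 43 genes in all, and without KRM Sham 3 *Nr1h3* joined the 4, where 10.6% of 12615 genes were called. In CD11chi macrophages edgeR called 0 of 12739 genes and in CD11clo macrophages 0 of 12301 (0% in both), although 1247 and 1102 genes had an unadjusted p under 0.05, among them 4 and 3 of the 10. DESeq2 called 189 genes in CD11chi macrophages, *Fabp5* and *Gpnmb* among them, and 107 in CD11clo macrophages with none of the 10.

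**Figure D3:**
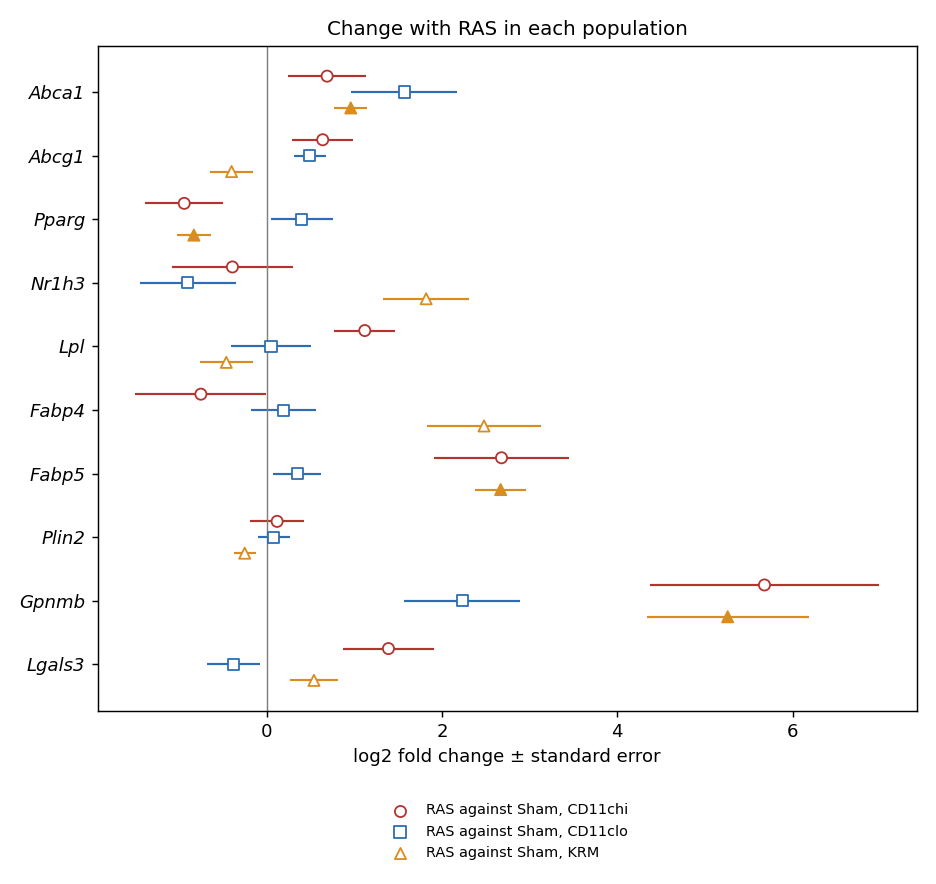
Log2 fold change of RAS over Sham, with its standard error, for the 10 genes in the 3 populations. Filled symbols have an adjusted p under 0.05 in edgeR, which was reached in KRM for Abca1, Pparg, Fabp5 and Gpnmb; Gpnmb has positive values in all 3 populations, with the widest errors.

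*Abca1*, on chromosome 4 from 53030787 to 53159895, rose with RAS in KRM. The 4 Sham KRM libraries were at 40.3, 56.9, 61.9 and 53.6 CPM and the 3 RAS libraries at 108, 76.6 and 105 CPM. Every RAS library lay above every Sham library, a 1.95-fold difference (log2 0.96, standard error 0.188, adjusted p = 0.0291 in edgeR). The call was lost in 8 of 16 alternatives, among them 1 fit over all groups (log2 0.86, adjusted p = 0.257) and limma on the second table (log2 1.01, adjusted p = 0.0631). In CD11clo macrophages Sham libraries were at 27.7, 29.2 and 60.4 CPM and RAS libraries at 46.2, 64.2, 244 and 120 CPM. The groups overlapped and the largest value came from CD11clo RAS 3, which also held the most macrophage marker RNA of its group, 17557 CPM against 6373 to 8024 CPM, and whose part in the result was not tested (log2 1.57, standard error 0.605, adjusted p = 0.553). Without that library the difference was 0.96 on the log2 scale. In CD11chi macrophages the level was 34.5 ± 14.0 CPM (SD, n = 3) in Sham and 58.2 ± 27.4 CPM (SD, n = 4) in RAS, and the difference missed the threshold (adjusted p = 0.601). Between populations *Abca1* was not called in Sham or RAS kidneys with all libraries in, and neighbouring groups overlapped all along the order of their means, from 119 CPM in CD11clo RAS to 34.5 CPM in CD11chi Sham.

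*Abcg1*, on chromosome 17 from 31057675 to 31117988, followed another order. In Sham kidneys KRM held 66.5, 56.0, 48.0 and 59.7 CPM and CD11clo macrophages 31.7, 29.3 and 35.3 CPM. All KRM libraries were above all CD11clo libraries, a 1.76-fold difference (log2 0.82, standard error 0.137, adjusted p = 0.00200). CD11chi Sham macrophages held 43.7, 42.1 and 19.6 CPM, the last in the library with most tubule marker RNA, and the log2 difference of KRM from them was 0.67 (adjusted p = 0.181). With RAS the KRM libraries were at 58.7, 27.4 and 35.6 CPM, overlapping Sham, and the difference was -0.40 (adjusted p = 0.282). Without KRM RAS 1, the highest of the 3, it was -0.79 (adjusted p = 0.00574). In CD11chi and CD11clo macrophages all RAS libraries lay above all Sham libraries, with log2 differences of 0.64 and 0.49, but neither passed adjustment (adjusted p = 0.537 and 0.553).

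*Pparg*, on chromosome 6 from 115360951 to 115490399, had its highest mean in Sham KRM. Its level there was 76.3, 74.0, 59.1 and 73.2 CPM, against 11.9, 15.9 and 24.2 CPM in Sham CD11clo macrophages. The groups were far apart, 4.03-fold (log2 2.01, standard error 0.228, adjusted p = 0.000262), and the call was kept under each alternative setting and with any single library left out. Sham CD11chi macrophages were between, at 63.8, 57.7 and 24.6 CPM, and the lowest value came again from replicate 3. They overlapped KRM, whose level was not called against theirs (log2 0.50, adjusted p = 0.313). Their log2 difference from CD11clo was 1.54 (adjusted p = 0.137), and 1.80 without CD11chi Sham 3 (adjusted p = 0.0331). With RAS *Pparg* fell in KRM to 49.7, 29.8 and 31.7 CPM, all below the Sham libraries, a 1.77-fold difference (log2 -0.83, standard error 0.194, adjusted p = 0.0413). Without KRM RAS 1 the log2 change was -1.12 (adjusted p = 0.000439). The call was lost in 7 of 16 alternatives, among them 1 fit over all groups (log2 -0.93, adjusted p = 0.127). The CD11chi libraries from RAS kidneys were at 45.3, 23.8, 19 and 17.8 CPM, which overlapped Sham (log2 -0.94, adjusted p = 0.515), and in CD11clo macrophages the difference was 0.40 (adjusted p = 0.735). In RAS kidneys edgeR called *Pparg* in no comparison of populations with all libraries in. It was called higher in KRM than in CD11clo macrophages in 1 of 16 alternatives, with a library left out (adjusted p = 0.0419).

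*Nr1h3*, on chromosome 2 from 91184061 to 91202834, encodes LXR alpha and in Sham kidneys was lowest in KRM. It was at 1.08, 2.33, 5.38 and 3.24 CPM in Sham KRM, from 9 to 108 counts, and at 7.96, 18.0 and 30.8 CPM in CD11clo macrophages. No library of KRM reached those of CD11clo, a 6.15-fold difference (log2 -2.62, standard error 0.583, adjusted p = 0.00776). CD11chi macrophages, at 15.7, 5.74 and 28.0 CPM, were also all above KRM, but the difference of -2.50 was not called (adjusted p = 0.0846). The threshold was met in DESeq2 (adjusted p = 0.00437), in 1 fit over all groups (0.0385) and without CD11chi Sham 2 (0.044). Without CD11chi Sham 3 the difference was -1.80 (adjusted p = 0.0903). In each Sham population replicate 3 held the most *Nr1h3* and the most proximal tubule markers. Those markers were at 2860, 6081 and 19916 CPM in KRM, CD11clo and CD11chi macrophages, and their part was not tested. In RAS kidneys KRM held 12.8, 8.33 and 9.25 CPM, each above every Sham KRM library, and the log2 change of 1.82 just missed the threshold (standard error 0.492, adjusted p = 0.0557). It passed without KRM RAS 1, at 1.57 (adjusted p = 0.0391), without KRM Sham 3, at 2.28 (adjusted p = 0.0306), and in DESeq2, at 1.82 (adjusted p = 0.0059). In CD11chi and CD11clo macrophages the changes were -0.39 and -0.90 (adjusted p = 0.858 and 0.628). In RAS kidneys the populations overlapped, with means of 10.1 CPM in KRM, 13.6 in CD11chi and 10.4 in CD11clo macrophages.

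*Lpl*, on chromosome 8 from 68880491 to 68907448, encodes the lipase that frees fatty acids from lipoproteins. It stood out in CD11chi macrophages from RAS kidneys, at 644, 1255, 1188 and 1146 CPM, against 170, 350, 362 and 320 CPM in CD11clo macrophages from the same surgery. The groups did not overlap, 3.52-fold apart (log2 1.81, standard error 0.324, adjusted p = 0.0129), and the call was kept under each alternative and with any single library left out. Sham CD11chi macrophages were at 499, 368 and 498 CPM, all below the RAS libraries, yet the log2 change of 1.12 was not called (adjusted p = 0.508). In Sham KRM the level was 587, 549, 490 and 460 CPM, and in RAS KRM 568, 233 and 260 CPM, with replicate 1 apart from the others (log2 -0.46, adjusted p = 0.305; without it -1.01, adjusted p = 0.000989). Among Sham CD11clo libraries replicate 3 was apart at 509 CPM, against 156 and 182 CPM. Without it KRM was 1.58 above CD11clo on the log2 scale (adjusted p = 7.01e-05), and with it 0.88 (adjusted p = 0.0937).

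*Fabp4* and *Fabp5*, neighbours on chromosome 3 from 10204088 to 10208576 and from 10012548 to 10016607, encode fatty acid carriers of the cytosol, and both were low in Sham KRM. *Fabp4* was at 3.01, 4.44, 3.84 and 2.72 CPM in Sham KRM, below all libraries of CD11chi macrophages, at 21, 12.4 and 38.2 CPM, and of CD11clo macrophages, at 10.1, 15.7 and 8.18 CPM. The differences were 7.14-fold (log2 -2.84, standard error 0.430, adjusted p = 0.0152) and 3.28-fold (log2 -1.71, standard error 0.331, adjusted p = 0.00401), the second lost in 1 fit over all groups (adjusted p = 0.0772). *Fabp4* is also an endothelial and adipocyte gene. Its highest level among Sham libraries was in CD11chi Sham 3, where endothelial markers were at 259 CPM against 49.8 and 25.1 CPM in the rest of that group. Without that library the difference from KRM was -2.26 (adjusted p = 0.00391). The call against CD11chi was lost when any of the 4 KRM libraries or CD11chi Sham 1 was left out, with adjusted p-values of 0.0502 to 0.0634. In RAS KRM *Fabp4* was at 3.04 CPM in replicate 1 and 25.3 and 25.9 CPM in replicates 2 and 3. Replicate 1 lay within the Sham range and the others far above it, in the same pattern as the endothelial markers, at 30.3, 236 and 205 CPM, of which all 10 were detected in the group. Other libraries did not show this pattern. CD11clo RAS 4 held 318 CPM of endothelial markers with *Fabp4* at 15.9 CPM, and CD11chi RAS 2 held 52.2 CPM with *Fabp4* at 37.6 CPM. The part of endothelial cells in the *Fabp4* levels was not tested. Adipocyte markers, 7 genes, summed to 0.687 to 4.03 CPM in RAS KRM. The log2 change with RAS was 2.48 (standard error 0.645, adjusted p = 0.0509), or 2.93 without replicate 1 (adjusted p = 9.91e-05). It was called in 8 of 16 alternatives, among them DESeq2 (adjusted p = 0.00205), limma (0.00953), a joint fit of all groups (0.0404), scaling by library totals (0.0479), and either no filter or a stricter one on low genes (0.0476 and 0.0499).

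*Fabp5* did not show that split. It was at 3.25, 3.49, 3.14 and 1.88 CPM in Sham KRM and at 13.2, 20.3 and 18.7 CPM in RAS KRM. The groups were well apart, 6.34-fold (log2 2.67, standard error 0.293, adjusted p = 0.0114), and of the 10 genes it kept its RAS call in KRM most often when a library was left out, in 4 of 7 cases, with adjusted p-values of 0.0517 to 0.0542 without KRM Sham 1, KRM RAS 2 or KRM RAS 3. In Sham kidneys KRM was 9.16-fold below CD11chi macrophages, which held 25.5, 19.1 and 33.1 CPM (log2 -3.20, standard error 0.323, adjusted p = 0.00430). Against CD11clo macrophages, at 43.4, 40.5 and 27.5 CPM, it was 12.8-fold lower (log2 -3.68, standard error 0.282, adjusted p = 3.33e-05). Both calls were kept under each alternative setting and with any single library left out. In RAS kidneys KRM stayed below both, by 3.32 and 1.42 on the log2 scale (adjusted p = 0.0423 and 0.0425). Neither was called by limma on the second deposited table, at -1.45 and -0.10 (adjusted p = 0.366 and 0.938). With KRM RAS 1 left out limma gave -2.31 and -0.97, of which the second passed (adjusted p = 0.0503 and 0.0494). The first call was kept without CD11chi RAS 1 and lost without any other single library, with adjusted p-values of 0.0522 to 0.162, and the difference was -2.28 without CD11chi RAS 2. It was also lost with the replicate block (adjusted p = 0.0820). The second call was lost without CD11clo RAS 2 or 4 or KRM RAS 2 or 3, with 0.100 to 0.139, and in 1 fit over all groups (adjusted p = 0.0745). RAS CD11chi libraries held 44.0, 441, 120 and 106 CPM, all above Sham but spread widely, and the log2 change of 2.68 was not called (adjusted p = 0.508), nor was that of 1.64 without CD11chi RAS 2 (adjusted p = 0.589). In CD11clo macrophages Sham and RAS overlapped, at 37.1 ± 8.46 CPM (SD, n = 3) and 47.8 ± 15.5 CPM (SD, n = 4), with a change of 0.35 (adjusted p = 0.702). The change in KRM exceeded that in CD11clo macrophages by 2.26 on the log2 scale (interaction, standard error 0.418, adjusted p = 0.0488), where 0.245% of 13877 genes were called, 0.223% higher. That call was kept without KRM RAS 1, CD11clo Sham 3 or CD11clo RAS 1 and lost without any of the other 11 libraries, and it was lost with the replicate block (adjusted p = 0.0965) and in 1 fit over all groups (adjusted p = 0.167).

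*Plin2*, on chromosome 4 from 86648386 to 86670060, encodes a protein that coats lipid droplets. Sham KRM were at 188, 183, 180 and 182 CPM and CD11clo macrophages at 329, 309 and 371 CPM. All KRM libraries were below, 1.86-fold (log2 -0.90, standard error 0.0988, adjusted p = 0.000226). In RAS kidneys KRM, at 170, 125 and 136 CPM, were again below CD11clo macrophages, at 318, 360, 308 and 450 CPM, with a log2 difference of -1.28 (standard error 0.219, adjusted p = 0.0257). That call was lost without CD11clo RAS 2 or 4 or KRM RAS 2 or 3, with adjusted p-values of 0.0616 to 0.130. CD11chi macrophages were between, at 241 ± 59.3 CPM (SD, n = 3) in Sham and 276 ± 73.1 CPM (SD, n = 4) in RAS. With RAS the log2 change was -0.25, 0.12 and 0.08 in KRM, CD11chi and CD11clo macrophages (adjusted p = 0.208, 0.905 and 0.904), and -0.41 in KRM without replicate 1 (adjusted p = 0.0118).

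*Gpnmb*, on chromosome 6 from 49036546 to 49070929, encodes a glycoprotein of lysosome and cell surface that marks lipid-laden macrophages, and it had the widest range. In Sham KRM it had 0, 0, 10 and 10 counts, or 0, 0, 0.499 and 1.05 CPM, where 0 counts allow up to 0.361 and 0.317 CPM on the same scale. The lower level than in Sham CD11clo macrophages was called (adjusted p = 0.0392), but the call was lost without CD11clo Sham 1 or 2 or KRM Sham 1, 2 or 3, with adjusted p-values of 0.0597 to 0.101, and with no filter or in 1 fit over all groups (adjusted p = 0.0681 and 0.0599). In RAS KRM it was at 9.62, 16.1 and 18.2 CPM, from 98 to 199 counts. Every RAS library was above every Sham library, with a fitted log2 change of 5.26 (standard error 0.924, adjusted p = 0.0251) whose size depends on the prior count because Sham levels were near 0, and the call was lost in 6 of 15 alternatives. With 1 library left out the change ran from 4.89 to 6.07. On the second table limma gave 3.75, or 2.6 with KRM RAS 1 left out. In CD11chi macrophages Sham libraries were at 3.80, 1.59 and 8.66 CPM and RAS libraries at 26.3, 748, 138 and 119 CPM. The groups did not overlap, but the RAS libraries were spread 28.4-fold, and the log2 change of 5.68 had a standard error of 1.31 and an adjusted p of 0.508. Without CD11chi RAS 2 it was 4.14 (adjusted p = 0.589). In CD11clo macrophages the values were 2.38, 3.48 and 4.09 CPM in Sham and 3.81, 16, 12.3 and 31.3 CPM in RAS. CD11clo RAS 1 lay within the Sham range and the others above it (log2 2.23, standard error 0.659, adjusted p = 0.553). In RAS kidneys CD11chi macrophages exceeded CD11clo macrophages 16.5-fold (log2 4.04, standard error 1.01, adjusted p = 0.0397), although CD11chi RAS 1, at 26.3 CPM, was below CD11clo RAS 4. That call was kept without CD11chi RAS 1 and lost without any other single library, and without CD11chi RAS 2 the difference was 5.9-fold (log2 2.56, adjusted p = 0.0779). It was also lost in limma on the second table (log2 2.74, adjusted p = 0.0645). Against KRM in RAS kidneys the CD11chi level was 17.2-fold higher but not called (log2 -4.10, adjusted p = 0.0553). It was called in 4 of 16 alternatives, among them an edgeR fit with 1 library left out (adjusted p = 0.0181). Without CD11chi RAS 2 the difference was -2.59 (adjusted p = 0.0648).

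*Lgals3*, on chromosome 14 from 47367751 to 47386160, encodes galectin-3, a lectin that macrophages secrete in injury. Sham KRM held 397, 291, 240 and 276 CPM, all below Sham CD11clo macrophages, at 1164, 1125 and 740 CPM, 3.42-fold (log2 -1.77, standard error 0.227, adjusted p = 0.000491). Monocyte markers, 7 genes, were at 561 to 853 CPM in Sham KRM and 4073 to 13257 CPM in Sham CD11clo macrophages, and their part in the difference was not tested. CD11chi macrophages were at 636, 400 and 250 CPM in Sham and 579, 2067, 1100 and 997 CPM in RAS, which overlapped (log2 1.39, standard error 0.516, adjusted p = 0.508). CD11chi RAS 2 was the highest library for *Lgals3* as for *Gpnmb* and *Fabp5*. In KRM the RAS libraries were at 254, 528 and 432 CPM, partly within the Sham range (log2 0.54, adjusted p = 0.207). Replicate 1 alone was within the Sham range, and without it the change was 0.75 (adjusted p = 0.0137).

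**Figure D4:**
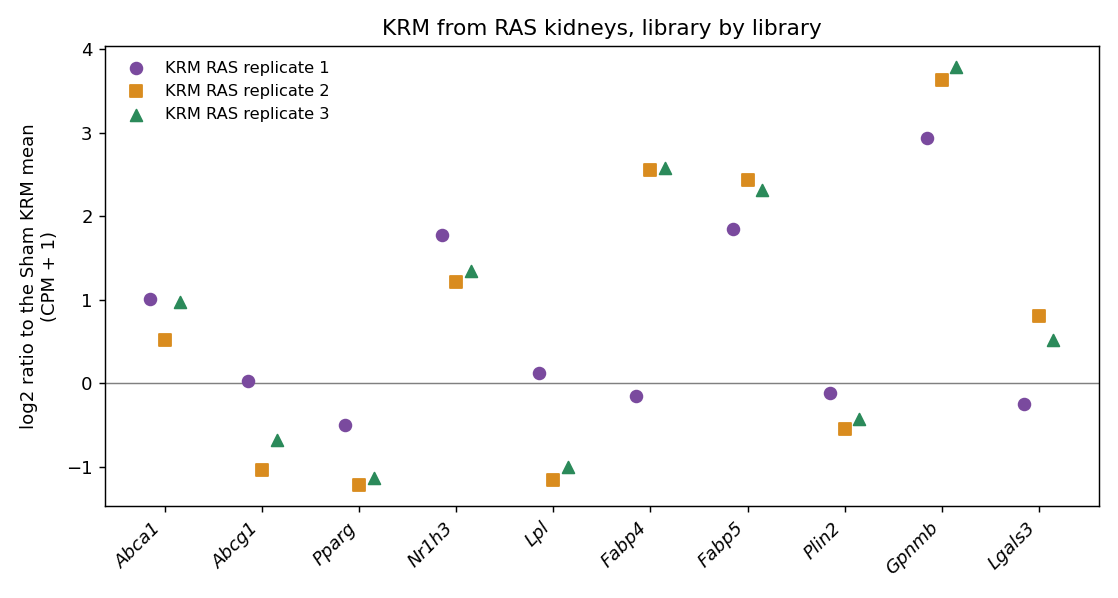
Each RAS library of KRM against the mean of the Sham KRM libraries, as the log2 ratio of CPM + 1. Replicates 2 and 3 lie close together for most genes, and replicate 1 lies at or near 0 for Abcg1, Lpl, Fabp4, Plin2 and Lgals3, where its ratios are 0.03, 0.12, -0.15, -0.11 and -0.25.

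Library by library, KRM RAS 2 and 3 moved alike while KRM RAS 1 differed in part. For *Abca1*, *Nr1h3*, *Fabp5* and *Gpnmb* all 3 libraries were above the Sham mean, with log2 ratios of 0.52 to 1.01, 1.22 to 1.78, 1.85 to 2.43 and 2.94 to 3.79. For *Pparg* all 3 were below it, at -0.50, -1.22 and -1.13. For *Abcg1* and *Lpl* the ratios of replicates 2 and 3 were -1.04 and -0.68, and -1.16 and -1.0, while replicate 1 was at 0.03 and 0.12. KRM RAS 2 and 3 are also the libraries with high distal nephron, endothelial and fibroblast markers, the last, 8 genes, at 414 and 484 CPM against 44.2 CPM in replicate 1 and 19.3 to 41.9 CPM in Sham. The part of these cells in the levels of the 10 genes was not tested. The dissociation stress genes, 10 in number, were lower in RAS KRM, at 20129 to 25102 CPM, than in Sham KRM, at 30575 to 47217 CPM, and their part was likewise not tested.

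The difference between the RAS responses of populations was tested as an interaction. Beside *Fabp5* no gene of the 10 was called by edgeR. For KRM minus CD11clo the largest other values were 2.95 for *Gpnmb*, 2.63 for *Nr1h3* and 2.24 for *Fabp4* (adjusted p = 0.157, 0.0924 and 0.128), and *Pparg* and *Abcg1* were at -1.30 and -0.95 (adjusted p = 0.0985 and 0.114). Without KRM RAS 1 *Fabp5*, *Fabp4*, *Pparg* and *Abcg1* were called, at 2.41, 2.72, -1.59 and -1.33, along with 16.1% of genes. For KRM minus CD11chi edgeR called 0 of 14137 genes (0%), with 3000 at an unadjusted p under 0.05, and DESeq2 called 1221 genes. *Fabp4* was at 3.16 and *Lpl* at -1.65 there (adjusted p = 0.126 and 0.101). For CD11chi minus CD11clo it called 0 of 13540 (0%), with 900 at an unadjusted p under 0.05 and 15 genes in DESeq2. *Gpnmb* was at 3.52 and *Lgals3* at 1.84 (adjusted p = 0.735 for both).

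The wider pathways were counted for KRM with RAS, where 9.7% of all genes were called, 7.77% higher and 1.94% lower. Their lists were also chosen with earlier results known. Of the LXR list 16 of 18 listed partners and targets of LXR could be tested. *Scd2*, a fatty acid desaturase, rose 5.89-fold (log2 2.56, adjusted p = 0.0365) and *Pltp*, which transfers phospholipid between lipoproteins, 2.31-fold (log2 1.21, adjusted p = 0.0117), and none fell. The median of the list was 0.04, beside 0.02 over all genes, and its share of calls, like that of the lipid droplet list given later, was near the background. Of 18 PPAR partners and targets, *Cebpb*, an inducer of *Pparg*, rose (log2 1.07, adjusted p = 0.0408), while the fatty acid receptor *Cd36* and the mitochondrial carrier *Ucp2* fell by 0.83 and 0.73 on the log2 scale (adjusted p = 0.0480 and 0.0422). Among 11 lipoprotein and scavenger receptors tested *Cd36* and *Scarb1*, a receptor of high-density lipoprotein, fell, the latter by 0.76 (adjusted p = 0.0404), and *Colec12*, a scavenger receptor of vessel walls, rose. Among 16 genes of lipid droplets and cholesterol esters, *Acsl3*, an acyl-CoA ligase, fell by 0.60 (adjusted p = 0.0305) and *Mgll*, a monoacylglycerol lipase, rose. *Colec12* and *Mgll* were low in abundance and are named after their values were seen. Of 15 companions of *Gpnmb* in lipid-associated macrophages, *Spp1*, *Ctsd* and *Trem2* rose and *Itgax*, which encodes the gated protein CD11c, fell by 0.86 (adjusted p = 0.0422). *Spp1*, osteopontin, is also made by injured tubules (log2 6.81, standard error 1.41, adjusted p = 0.0321) and had a mean of 4283 ± 3751 CPM (SD, n = 3) in RAS against 40.5 ± 46.8 CPM (SD, n = 4) in Sham, beside the distal nephron markers given above, whose part was not tested. The lysosomal protease *Ctsd* rose 3.41-fold, from 343 ± 13.3 to 1083 ± 290 CPM (adjusted p = 0.0117). *Trem2*, a lipid receptor, rose 2.25-fold, from 28.9 ± 4.77 to 60.4 ± 5.85 CPM (adjusted p = 0.0154). The median of the 15 was 0.23. With KRM RAS 1 left out the 11 genes given with values here were called in the same directions (adjusted p = 6.94e-06 to 0.00232), with *Scd2* at 7.95-fold and *Spp1* at 7.31 on the log2 scale, but so were 28.1% of all genes higher and 22.1% lower. The LXR list then had 4 genes higher and 5 lower of 16, the PPAR list 5 and 4 of 18, the receptors 2 and 6 of 12, the lipid droplet list 3 and 4 of 16 and the companions 7 and 5 of 15. The calls did not hold when other libraries were left out. None of the 11 genes was called without KRM Sham 2, KRM Sham 4, KRM RAS 2 or KRM RAS 3 (adjusted p = 0.0511 to 0.166 over these fits), *Trem2* alone was called without KRM Sham 1 (adjusted p = 0.0359), and 6 of the 11 were without KRM Sham 3.

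The same lists were counted for KRM against CD11clo macrophages in Sham kidneys, where 41.9% of all genes were called, 19.5% higher and 22.4% lower. Of 18 LXR partners and targets 10 were lower in KRM and 3 higher, with a median of -0.61 beside -0.04 over all genes. *Apoc2*, a cofactor of lipoprotein lipase, was 30.0-fold lower (adjusted p = 7.83e-06) and *Mylip*, a ubiquitin ligase, 4.27-fold higher (adjusted p = 2.43e-05). Of 13 lipoprotein and scavenger receptors 7 were lower and 3 higher, with *Lrp1* 5.61-fold lower (adjusted p = 8.54e-06) and the scavenger receptor *Stab1* 5.98-fold higher (adjusted p = 1.58e-05). Of 16 tested genes of lipid droplets and cholesterol esters 8 were lower and 4 higher, among them *G0s2*, an inhibitor of lipolysis, 45.7-fold lower (adjusted p = 0.000294), and *Acsl3*, 5.50-fold higher (adjusted p = 0.000508). Of 17 PPAR partners and targets 4 were higher and 3 lower, a share near that of all genes. The level of *Cd36*, 554 ± 50.7 CPM (SD, n = 4) among KRM libraries, was above the 191 ± 128 CPM (SD, n = 3) of CD11clo libraries (log2 1.53, adjusted p = 0.0108), as for *Pparg*, while *Cebpb* was 11.8-fold lower (adjusted p = 6.65e-06). Of 15 companions of *Gpnmb* 6 were higher and 3 lower. These include *Itgax*, so chosen by the gates that its difference is no result. With the replicate block the genes given with values here were called as well, and so they were with any single library left out. Neutrophil markers, 7 genes, summed to 898 to 1933 CPM in CD11clo Sham libraries and 90.3 to 117 CPM in KRM Sham libraries, where *Ly6g* and *Camp* were at 0, and the monocyte markers given above also differed. Their part in the list differences was not tested. Against CD11chi macrophages, where 5.13% of all genes were called and 4.13% were lower in KRM, 5 of 17 LXR partners and targets were lower in KRM, *Apoc2*, *Smpdl3a*, *Pltp* and *Scd2* by 14.1, 5.79, 2.68 and 2.18-fold (adjusted p = 0.0216, 0.0122, 0.0416 and 0.0127) and the scarce *Cd5l*. Of 12 receptors *Marco* and *Olr1* were lower, and the PPAR, lipid droplet and companion lists had no gene called. With the replicate block, under which 0.703% of all genes were lower, *Smpdl3a* alone of the LXR list was called (5.42-fold, adjusted p = 0.0408), while *Apoc2*, *Pltp* and *Scd2* had adjusted p-values of 0.0666, 0.164 and 0.130. No receptor was then called, and 1 gene of the lipid droplet list was lower. Of these 4 genes none was called without KRM Sham 2 or KRM Sham 4, *Scd2* alone without KRM Sham 1, *Smpdl3a* alone without CD11chi Sham 1, *Scd2* and *Smpdl3a* without KRM Sham 3, and all but *Pltp* without CD11chi Sham 2.

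In RAS kidneys KRM had 4 PPAR partners and targets of 18 higher than each of the other populations, where 4.17% of all genes were higher than in CD11chi and 3.28% higher than in CD11clo macrophages. Against CD11chi these included *Pdk4*, *Ppargc1a* and *Acsl1*, the last 2.19-fold higher (adjusted p = 0.0480). *Pdk4* and *Ppargc1a* are also genes of the renal tubule and were uneven between KRM libraries, at 25.8 ± 21.4 and 23.9 ± 19.3 CPM (SD, n = 3). When KRM RAS 1 was left out the PPAR list had 3 and 5 of 18 genes higher in KRM, where 12.8% and 12.6% of all genes were. *Pdk4* and *Ppargc1a* were still called against CD11chi (adjusted p = 0.00108 and 0.00211), and *Acsl1* was not (2.08-fold, adjusted p = 0.0603). No gene of the 5 lists was called against CD11chi without KRM RAS 2, KRM RAS 3, CD11chi RAS 3 or CD11chi RAS 4, and 3 were without CD11chi RAS 2, *Acsl1* but neither *Pdk4* nor *Ppargc1a* among them. Without CD11chi RAS 1 *Ppargc1a* alone of these 3 lost its call. CD11clo macrophages held more of 5 of 13 lipoprotein and scavenger receptors than KRM, where 5.89% of all genes were lower in KRM, among them *Msr1*, 4.88-fold (adjusted p = 0.0148). Leaving out KRM RAS 1 made these 6 of 13, *Msr1* included (adjusted p = 0.0130), beside 10.4% of all genes. Without KRM RAS 2 or KRM RAS 3 no gene at all was called against CD11clo, and without CD11clo RAS 2 or CD11clo RAS 4, 2 and 4 genes of the 5 lists were, *Msr1* among them in both. Neutrophil markers were at 1923 to 3416 CPM in CD11clo RAS libraries, 10.7 to 325 CPM in CD11chi RAS libraries and 65.0 to 125 CPM in KRM RAS libraries, and their part in these differences was not tested. CD11chi macrophages, highest in *Lpl* and *Gpnmb*, had less *Cebpb* than CD11clo macrophages, 4.27-fold (adjusted p = 0.0103), less *Dgat2*, which makes triglyceride, 3.73-fold (adjusted p = 0.00838), and more *Plin3*, a droplet coat protein, 2.29-fold (adjusted p = 0.0223). The calls of *Cebpb* and *Dgat2* held with any single library left out, and that of *Plin3* was lost without CD11chi RAS 3 or 4 or CD11clo RAS 2 or 4. With RAS no gene of these 5 lists was called in CD11chi or CD11clo macrophages by edgeR.

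The genes most like each of the 10 over the 21 libraries were read as Pearson correlations of log2 CPM with 8892 other genes or 8893 for *Gpnmb*. They are descriptions, since libraries share population, surgery and cell content. *Pparg* was most like *Tle1* (r = 0.943) and *Abca1* most like *Nrp1* (r = 0.906). *Abcg1* was most like *Npc1* (r = 0.877), whose product moves cholesterol out of lysosomes. For *Lpl* it was *Bin1* (r = 0.926), for *Nr1h3* *Arhgap10* (r = 0.844), for *Fabp4* *Hmgn5* (r = 0.798), for *Fabp5* *P2ry10* (r = 0.930), for *Plin2* *Ptpn12* (r = 0.939), for *Gpnmb* *Nr4a3* (r = 0.909) and for *Lgals3* *Arf5* (r = 0.950). Among the 10 themselves *Fabp5* and *Gpnmb* had the highest correlation (r = 0.88), then *Fabp5* and *Lgals3* (r = 0.82). *Pparg* ran against *Fabp5* (r = -0.75) and *Lgals3* (r = -0.74). *Abca1* and *Nr1h3* had r = -0.01, and *Abca1* and *Abcg1* had r = 0.30.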

How the data were processed

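The authors deposited estimated counts per gene, which need not be whole, and a second table of log2(TPM + 1) values that were quantile normalised. Per the labels and the methods of the study, libraries were made with a low-input SMART-Seq v4 kit and Nextera XT and aligned with OSA to mm10 with Ensembl annotation. Of 37620 lines, 3730 shared a symbol and were summed, giving 34236 symbols, and counts were rounded. Tests used edgeR 4.0.16 in R 4.3.3 on the compared groups alone, with TMM scaling, a filter (minimum count 10, minimum total 15) and Benjamini-Hochberg adjustment over all genes tested. DESeq2 1.42.0 and limma 3.58.1 (on the deposited log2 values) were alternatives, beside those in the closing section, and scripts were tested on simulated data. Positions are GENCODE annotation of GRCm38. The rule for named genes was the 10 genes, and per other list and comparison up to 4 called genes with the largest log2 change whose average log2 CPM reached 3, and for each of the 10 the genes most correlated with it, of which the first is named. The 10 genes and all lists were chosen with earlier results of these data known. For the wider lists, the fits with the replicate block and with each library left out were added after the data were seen. Replicate numbers were taken to pair libraries between the Sham populations, where each number's deviations correlated above 0.1 (lowest 0.201), and not elsewhere (lowest -0.196). Between CD11chi and CD11clo Sham, numbers 1 and 2 correlated at 0.349 and 0.385. The highest values with another number were 0.482 and 0.457, so pairing by those numbers is not established there. In KRM RAS 1 the tables had a correlation of 0.09, against at least 0.92 in the others.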

Additional observations from a re-analysis of the deposited data

Results flagged for a closer look

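*Gpnmb* in CD11chi RAS 2, at 748 CPM, lay far from the other libraries of its group, at 26.3, 138 and 119 CPM, with a gap to its nearest neighbour of 0.845 of the group's range. The limit used for such a gap, Dixon's 95% critical value, is one that about 1 in 20 groups pass by chance. The response of *Fabp5* to RAS was 2.26 larger on the log2 scale in KRM than in CD11clo macrophages, by the interaction test (adjusted p = 0.0488 in edgeR). The call was lost in 13 of 23 alternatives, among them the replicate block and all but 3 of the fits with 1 library left out, over which the difference ranged from 2.06 to 2.45.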

How the results depend on the processing

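The 8 calls between KRM and CD11clo macrophages in Sham kidneys varied between 6 and 10 over all settings and libraries left out, and those of *Fabp5* in KRM against both Sham populations were kept in each. Without a filter on low counts the calls were 395 genes for KRM against CD11chi in Sham kidneys, 95 genes for CD11chi against CD11clo in Sham kidneys, 2 of the 10 for KRM against CD11chi in RAS kidneys, 1 gene for the response of KRM minus CD11chi and 74 genes for the response of KRM minus CD11clo. With at least 10 counts required in every library the calls were 752 genes for RAS against Sham in KRM. The sign also turned, for uncalled log2 changes, for *Gpnmb* 0.04 for KRM against CD11clo in RAS kidneys and *Fabp5* 0.01 for the response of KRM minus CD11chi. With RLE size factors the calls were 59 genes for the response of KRM minus CD11clo. With scaling by library totals the calls were 113 genes for CD11chi against CD11clo in Sham kidneys and 77 genes for the response of KRM minus CD11clo. Uncalled changes with a turned sign were *Abca1* 0.00, *Abcg1* 0.09 and *Gpnmb* 0.17 for KRM against CD11clo in RAS kidneys, *Lpl* -0.02 for RAS against Sham in CD11clo and *Fabp5* 0.10 for the response of KRM minus CD11chi. With 1 fit over all groups the calls were 3447 genes for KRM against CD11clo in Sham kidneys, 818 genes and 1 of the 10 for CD11chi against CD11clo in Sham kidneys, 2138 genes and 5 of the 10 for KRM against CD11chi in RAS kidneys, 1838 genes and 1 of the 10 for KRM against CD11clo in RAS kidneys, 1729 genes for CD11chi against CD11clo in RAS kidneys, 5 genes for RAS against Sham in CD11chi, 16 genes for the response of KRM minus CD11chi and 58 genes and 0 of the 10 for the response of KRM minus CD11clo. The sign also turned, for uncalled log2 changes, for *Nr1h3* -0.03 for KRM against CD11clo in RAS kidneys and *Pparg* -0.05 for the response of KRM minus CD11chi. DESeq2 called 1811 genes and 4 of the 10 for KRM against CD11chi in Sham kidneys, 1213 genes and 2 of the 10 for CD11chi against CD11clo in Sham kidneys, 2748 genes and 5 of the 10 for KRM against CD11chi in RAS kidneys, 3214 genes for KRM against CD11clo in RAS kidneys, 2052 genes for CD11chi against CD11clo in RAS kidneys, 3167 genes for RAS against Sham in KRM, 189 genes and 2 of the 10 for RAS against Sham in CD11chi, 107 genes for RAS against Sham in CD11clo, 1221 genes and 2 of the 10 for the response of KRM minus CD11chi, 1419 genes and 3 of the 10 for the response of KRM minus CD11clo and 15 genes for the response of CD11chi minus CD11clo. limma on the deposited log2 values called 389 genes for KRM against CD11chi in Sham kidneys, 103 genes for CD11chi against CD11clo in Sham kidneys, 572 genes and 0 of the 10 for KRM against CD11chi in RAS kidneys, 735 genes and 1 of the 10 for KRM against CD11clo in RAS kidneys, 1 of the 10 for CD11chi against CD11clo in RAS kidneys, 2599 genes for RAS against Sham in KRM, 133 genes and 2 of the 10 for the response of KRM minus CD11chi and 1459 genes and 4 of the 10 for the response of KRM minus CD11clo. Signs of uncalled log2 changes turned for *Gpnmb* -0.76 for CD11chi against CD11clo in Sham kidneys, *Pparg* -0.06 for KRM against CD11chi in RAS kidneys, *Abca1* 0.08, *Nr1h3* -0.04 and *Gpnmb* 0.98 for KRM against CD11clo in RAS kidneys, *Fabp4* -0.16 for CD11chi against CD11clo in RAS kidneys, *Plin2* -0.09 for RAS against Sham in CD11chi, *Pparg* -0.83 and *Fabp5* 1.52 for the response of KRM minus CD11chi and *Plin2* -0.15 for the response of CD11chi minus CD11clo. limma on those values with KRM RAS 1 left out called 2379 genes for KRM against CD11chi in RAS kidneys, 3498 genes for KRM against CD11clo in RAS kidneys, 7354 genes and 10 of the 10 for RAS against Sham in KRM, 1094 genes and 3 of the 10 for the response of KRM minus CD11chi and 3932 genes and 4 of the 10 for the response of KRM minus CD11clo. Signs of uncalled log2 changes turned for *Nr1h3* -0.39 for KRM against CD11clo in RAS kidneys and *Abca1* -0.09, *Pparg* -0.40 and *Fabp5* 0.66 for the response of KRM minus CD11chi. Scaling by library totals moved the median of all genes from 0.09 to 0.26 for the response of KRM minus CD11chi and from 0.02 to 0.21 for KRM minus CD11clo. The causes of these shifts were not tested.

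With replicate numbers as a block the calls were 89 genes and 1 of the 10 for KRM against CD11chi in Sham kidneys, 595 genes for CD11chi against CD11clo in Sham kidneys, 101 genes and 0 of the 10 for KRM against CD11chi in RAS kidneys, 42 genes and 0 of the 10 for RAS against Sham in KRM and 2 genes and 0 of the 10 for the response of KRM minus CD11clo. The sign also turned, for uncalled log2 changes, for *Fabp4* -0.10 for KRM against CD11chi in RAS kidneys, *Abca1* 0.15, *Nr1h3* -0.17 and *Gpnmb* 0.68 for KRM against CD11clo in RAS kidneys, *Fabp4* -0.19 for CD11chi against CD11clo in RAS kidneys, *Plin2* -0.04 for RAS against Sham in CD11clo and *Pparg* -0.10 and *Gpnmb* 0.39 for the response of KRM minus CD11chi. The block also added *Lpl* for KRM against CD11clo in Sham kidneys and took from KRM the RAS calls of *Abca1*, *Fabp5*, *Gpnmb* and *Pparg*, and it changed no other call of the 10 than these counts show.

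Leaving out 1 library at a time gave 155 to 1717 genes and 1 to 3 of the 10 for KRM against CD11chi in Sham kidneys, 0 to 705 genes and 0 to 1 of the 10 for CD11chi against CD11clo in Sham kidneys, 14 to 2788 genes and 0 to 4 of the 10 for KRM against CD11chi in RAS kidneys, 0 to 3239 genes and 0 to 3 of the 10 for KRM against CD11clo in RAS kidneys, 256 to 2169 genes and 1 to 3 of the 10 for CD11chi against CD11clo in RAS kidneys, 26 to 7071 genes and 0 to 10 of the 10 for RAS against Sham in KRM, 0 to 39 genes for RAS against Sham in CD11chi, 0 to 1097 genes and 0 to 2 of the 10 for the response of KRM minus CD11chi and 0 to 2357 genes and 0 to 4 of the 10 for the response of KRM minus CD11clo. Uncalled log2 changes that crossed 0 ranged over *Abca1* -0.46 to 0.36, *Nr1h3* -0.83 to 0.48 and *Gpnmb* -0.30 to 1.04 for CD11chi against CD11clo in Sham kidneys, *Nr1h3* -0.67 to 0.24 and *Fabp4* -0.01 to 1.31 for KRM against CD11chi in RAS kidneys, *Abca1* -0.51 to 0.39, *Abcg1* -0.49 to 0.08, *Lpl* -0.25 to 0.49, *Nr1h3* -0.22 to 0.42 and *Gpnmb* -0.41 to 0.52 for KRM against CD11clo in RAS kidneys, *Pparg* -0.19 to 0.47, *Nr1h3* -0.21 to 0.78 and *Fabp4* -0.74 to 0.53 for CD11chi against CD11clo in RAS kidneys, *Nr1h3* -1.01 to 0.31 and *Plin2* -0.10 to 0.29 for RAS against Sham in CD11chi, *Lpl* -0.25 to 0.84, *Fabp4* -0.01 to 0.49 and *Plin2* -0.04 to 0.18 for RAS against Sham in CD11clo, *Abca1* -0.16 to 0.44, *Pparg* -0.20 to 0.48, *Fabp5* -0.40 to 0.91 and *Gpnmb* -1.35 to 0.96 for the response of KRM minus CD11chi and *Abcg1* -0.14 to 0.39, *Nr1h3* -0.13 to 1.16 and *Plin2* -0.20 to 0.27 for the response of CD11chi minus CD11clo. Where this left 2 libraries in a group, they were taken to vary like the others. KRM RAS 2 and 3, left without KRM RAS 1, differed at a chi-square of 9.57 per degree of freedom. Their pairs with KRM RAS 1 were at 126 and 99.2, so adjusted p-values without it may be too small. Group sizes of 3 and 4 and levels of a few counts, as for *Gpnmb* in Sham KRM, limit what can be resolved.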
